A study of Mus musculus with 8 samples.

Results

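The 9 genes described here carry the Sonic hedgehog signal from the secreted ligand to the transcription factors at its end. They were chosen by name, though with earlier results of these data known. They are Shh, Ptch1, Boc, Hhip, Smo, Sufu, Gli1, Gli2 and Gli3, among 19938 genes with a probe set annotated with exactly 1 symbol. Each of the 9 had 1 such probe set, so no choice between probe sets was needed, and no filter on low values was applied. Affymetrix Mouse Gene 1.0 ST arrays were used on whole brains of C57BL/6J males taken as adults, on postnatal day 70. Pregnant dams had received 2 subcutaneous injections of ethanol in saline, at 2.5 g/kg each, or of saline alone, on each of 2 days. Early ethanol and early saline mice were exposed on gestational days 8 and 11, and late ethanol and late saline mice on gestational days 14 and 16. There were 2 arrays for each of the 4 groups, or 8 in all. Each array was taken to carry a pool of RNA from 3 males. The spread between arrays is then a spread between pools and not between mice. The paper states such pools for the injection models under its miRNA arrays. Its section on expression arrays mentions no pooling. The question was whether exposure before birth left a difference in the adult brain.

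Hedgehog signalling starts when Shh, a secreted lipid-modified protein, binds Patched 1, the receptor made by Ptch1. Unbound Patched 1 holds the membrane protein Smoothened (Smo) inactive, and its binding to Shh lets Smoothened enter the primary cilium and release the Gli proteins from their inhibitor Sufu. Gli2 is then mainly an activator, Gli3 mainly a repressor when processed, and Gli1 an activator that is itself a target gene. Ptch1 and Hhip, a decoy that binds the ligand, are also induced by the pathway and limit it. In the embryo the pathway patterns the ventral neural tube and the face, both known to be sensitive to ethanol. In the adult brain some neurons make Shh, among them Purkinje cells of the cerebellum, and astrocytes including Bergmann glia respond to it.

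Upstream sequences were available in the RefSeq table of GRCm38.p6 for 6 of the 9 genes. The 250 bases before the annotated start are shown for the target genes Ptch1 and Hhip and for the inhibitor Sufu, since Ptch1 and Sufu had the most and the fewest CpGs of the 6, Hhip is the other feedback gene, and other experiments of the study assayed DNA methylation. Capitals mark each CpG.
Ptch1: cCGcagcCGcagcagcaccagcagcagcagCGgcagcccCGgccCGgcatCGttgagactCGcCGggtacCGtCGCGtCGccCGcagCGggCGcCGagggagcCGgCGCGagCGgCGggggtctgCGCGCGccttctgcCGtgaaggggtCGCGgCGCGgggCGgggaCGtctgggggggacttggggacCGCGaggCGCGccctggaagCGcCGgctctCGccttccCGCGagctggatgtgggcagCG
Hhip: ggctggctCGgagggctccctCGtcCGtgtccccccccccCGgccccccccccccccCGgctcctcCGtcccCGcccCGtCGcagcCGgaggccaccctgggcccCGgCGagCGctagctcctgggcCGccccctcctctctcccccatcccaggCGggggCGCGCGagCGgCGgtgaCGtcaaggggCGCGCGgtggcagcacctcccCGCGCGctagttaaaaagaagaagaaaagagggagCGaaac
Sufu: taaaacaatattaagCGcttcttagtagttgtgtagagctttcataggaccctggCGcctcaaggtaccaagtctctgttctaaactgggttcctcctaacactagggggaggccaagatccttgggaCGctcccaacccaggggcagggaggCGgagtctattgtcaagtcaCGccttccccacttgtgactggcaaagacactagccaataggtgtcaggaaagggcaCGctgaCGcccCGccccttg
These windows lie at chr13:63565736-63565985 on the minus strand (Ptch1), chr8:80058009-80058258 on the minus strand (Hhip) and chr19:46396646-46396895 on the plus strand (Sufu). The Ptch1 window held 41 CpGs and had more than 98.9% of the 32851 windows of this length in the table, whose median was 6. Hhip had 28, Gli3 had 34, Gli2 had 22, Smo had 15 and Sufu had 8. The Gli consensus GACCACCCA, searched on both strands, occurred in 0 of these 6 windows and in 0.225% of all windows. Methylation was not measured on these arrays.

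The values are on the log2 scale, as deposited. Early arrays had medians of 6.74 to 6.84 and late arrays of 7.21 to 7.30, so that levels are compared only within a timing. Background was set from 1210 probe sets of olfactory and vomeronasal receptors, which are mostly silent in brain. Their 95th percentile averaged 6.48 over the early arrays and 7.46 over the late ones. By this measure 58.5% of 23410 probe sets with a symbol lay above background in the early and 51.7% in the late arrays. All 5 neuronal, 8 astrocyte and 4 oligodendrocyte markers measured lay above it in both timings. Late ethanol replicate 1 had the highest percentile of the late arrays, 7.70 against 7.28 to 7.50. On that array 48.52% of probe sets with a symbol lay above its own percentile, against 51.06% to 53.75% on the other late arrays. The part of this departure in the late differences was not tested. Since whole brain was measured, fewer cells of a type and less RNA per cell cannot be told apart.

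Of the 9 hedgehog genes, 8 lay above background in the early and 5 in the late arrays. Shh, Ptch1, Boc, Smo and Sufu did so in both timings, as did 51.2% of all probe sets, Hhip, Gli1 and Gli3 only in the early arrays, and Gli2 in neither. Gli1 passed narrowly, by 0.065 (log2) in the early arrays, and so did Shh, by 0.072 in the late arrays, with 1 of the 4 arrays below its own percentile. Values of Gli2 in both timings and of Hhip, Gli1 and Gli3 in the late arrays therefore cannot be told from those of silent genes. This does not show that these genes were silent, since background was set near the top of the receptor values. The late mean of Hhip minus background was only -0.079 (log2), with 1 of the 4 arrays above its own percentile. A difference in genes below background could be understated.

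**Figure D1:**
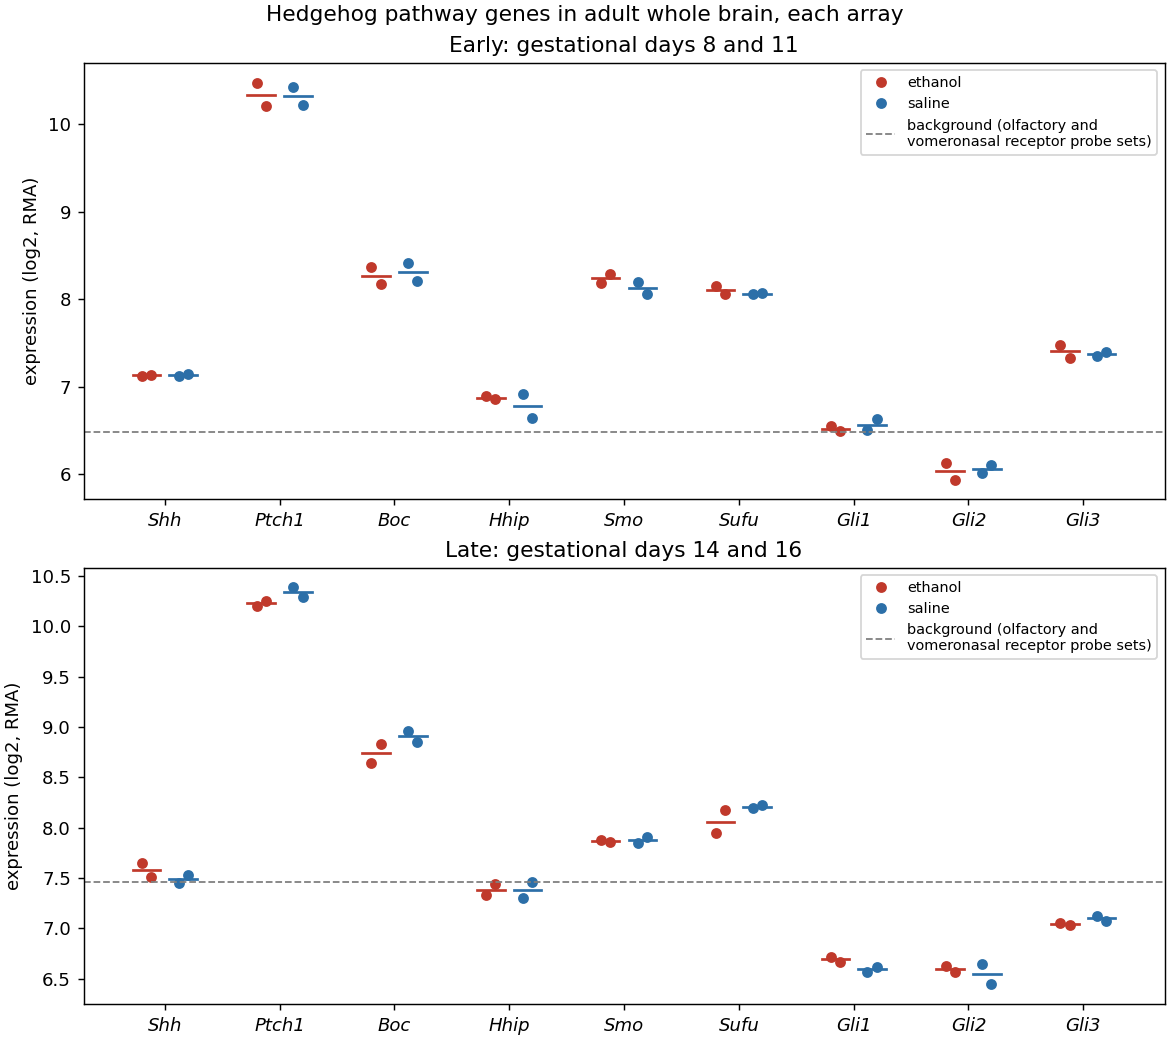
Expression on the log2 scale (vertical axis, RMA) of the 9 genes (horizontal axis) on each array, ethanol in red left of saline in blue, with a bar at the mean of 2 arrays and a dashed line at background (6.48 in the early, 7.46 in the late arrays). In the early panel every gene overlaps between ethanol and saline, and in the late panel Ptch1, Boc, Sufu and Gli3 lie lower and Gli1 higher in both ethanol arrays.

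After early exposure the hedgehog genes were close to their saline levels. None of the 9 passed an adjusted p under 0.05 (limma, Benjamini-Hochberg over 23410 probe sets), against 0% of all probe sets, and none passed the thresholds used in the study, 1.2-fold with an unadjusted p under 0.05, against 0.923%. At an unadjusted p under 0.05 there were 0 of the 9 in limma, against 1.71% of all probe sets, and 0 in an unmoderated test of each gene. The ethanol and saline arrays overlapped for all 9, whereas they were apart for 26.4% of all probe sets (7.5% with ethanol above and 18.9% with ethanol below). The differences ran between -0.044 and 0.11, 5 above and 4 below 0 (40.2% of all probe sets were above), with a median of 0.020 against -0.020 for all probe sets, and their median size was 0.041 against 0.058. Smo, the signalling membrane protein, had the smallest unadjusted p, 0.233, at rank 3292 among all probe sets.

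The ligand gene Shh (probe set 10528872) was at 7.12 and 7.13 in the early ethanol arrays and at 7.12 and 7.15 in the early saline arrays. All 4 arrays lay within 0.030 of each other. The log2 difference was -0.0036 (SE 0.082, 95% interval -0.19 to 0.18), and the interval corresponds to 0.875-fold to 1.14-fold.

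The receptor gene Ptch1 (probe set 10410039) was at 10.48 and 10.21 in early ethanol and at 10.42 and 10.22 in early saline. Replicate 1 was the higher array in both groups, and the gap between arrays of a group (0.27 in ethanol, 0.20 in saline) was many times the ethanol difference of 0.020 (SE 0.11, 95% interval -0.24 to 0.28). Boc, a co-receptor that binds the ligand beside Patched 1 (probe set 10439612), had the same pattern, at 8.37 and 8.17 in early ethanol and 8.41 and 8.21 in early saline. Its log2 difference was -0.041 (SE 0.11, 95% interval -0.30 to 0.22). Replicate 1 lay on the same side of replicate 2 in both groups for 4 of the 9 genes, against 58.4% of all probe sets.

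Hhip, the decoy for the ligand (probe set 10579894), was at 6.89 and 6.85 in early ethanol and at 6.91 and 6.64 in early saline. Saline replicate 2 alone was low. The log2 difference of 0.095 (SE 0.11, unadjusted p = 0.403 and adjusted p = 1 in limma) was -0.039 without that array. Smo (probe set 10536917) was at 8.18 and 8.29 in early ethanol, against 8.20 and 8.05 in early saline. It had the largest early difference of the 9, 0.11 (SE 0.085, 95% interval -0.086 to 0.31), which corresponds to 1.08-fold, and one ethanol array lay below the higher saline array. Its sign alone among the 9 was kept without any 1 array, with differences from 0.037 to 0.18.

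Sufu, the inhibitor that retains Gli proteins in the cytoplasm (probe set 10463645), was at 8.15 and 8.06 in early ethanol and at 8.05 and 8.07 in early saline, a log2 difference of 0.041 (SE 0.094). Gli3, the main repressor of the family (probe set 10403727), was at 7.47 and 7.33 in early ethanol and at 7.35 and 7.40 in early saline, a difference of 0.031 (SE 0.082). In both genes ethanol replicate 1 was the highest of the 4 arrays, and without it the difference was -0.0052 for Sufu and -0.040 for Gli3. Gli1, the target gene commonly used to read the pathway out (probe set 10373179), was at 6.55 and 6.49 in early ethanol and at 6.498 and 6.63 in early saline, a difference of -0.044 (SE 0.082, 95% interval -0.23 to 0.14). Gli2, the main activator (probe set 10357137), was at 6.12 and 5.94 in early ethanol and at 6.01 and 6.10 in early saline, a difference of -0.026 (SE 0.10) with every array below background. For Gli2 both saline arrays lay between the ethanol arrays, and for Gli1 one of them did.

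**Figure D2:**
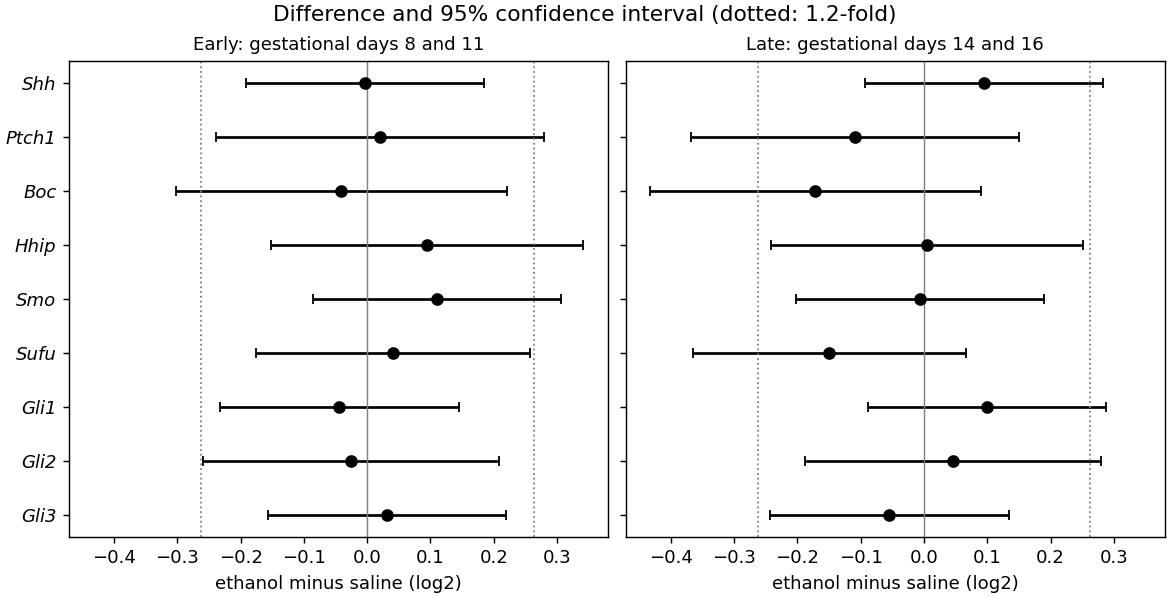
Log2 difference, ethanol minus saline (horizontal axis), of the 9 genes (vertical axis) with its 95% confidence interval from limma, early on the left and late on the right, and dotted lines at 1.2-fold either way. All 18 intervals include 0, and 5 of the 9 early and 3 of the 9 late intervals lie between the dotted lines.

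Precision set what could be seen. The model estimated the spread of a gene from all 8 arrays together, so its SE was the same in both timings. These SEs ran from 0.082 to 0.11 over the 9 genes and do not measure the spread of a timing alone. Early and late counts of intervals inside 1.2-fold therefore differ only through the estimates. The 95% interval lay inside 1.2-fold either way for 5 of the 9 genes after early exposure (Shh, Sufu, Gli1, Gli2 and Gli3), against 33.4% of all probe sets, although Gli2 lay at background. The widest early bounds of the 9 were 0.811-fold (Boc) and 1.27-fold (Hhip). A p that misses the threshold does not show equal levels.

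After late exposure no hedgehog gene passed a threshold either, while ethanol and saline arrays did not overlap for some of them. Of the 9 genes, 0 passed the adjusted threshold (0% of all probe sets), 0 the study's thresholds (1.16% of all probe sets) and 0 an unadjusted p under 0.05 in limma (2.49% of all probe sets) or in the unmoderated test. Ethanol and saline arrays were apart for 5 of the 9, against 28.4% of all probe sets. The 2 ethanol arrays lay below both saline arrays for 4 genes (Ptch1, Boc, Sufu and Gli3), against 15.7% of all probe sets, and above both for 1 (Gli1), against 12.7%. Differences ran between -0.17 and 0.10, 4 above and 5 below 0 (47.3% of all probe sets were above), with a median of -0.0058 against -0.0067 for all probe sets, and their median size was 0.095 against 0.069. Without the lowest 50% of probe sets, 4 of the 9 genes were left (Ptch1, Boc, Smo and Sufu), with a median of -0.13 against -0.052 for all probe sets left.

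Boc was at 8.64 and 8.83 in late ethanol and at 8.96 and 8.86 in late saline. The arrays did not overlap, yet the nearest ethanol and saline arrays lay closer to each other than either pair of replicates. The log2 difference was -0.17 (SE 0.11, 95% interval -0.43 to 0.090, unadjusted p = 0.169 and adjusted p = 1 in limma), or 0.888-fold, and it was -0.075 without late ethanol replicate 1 and -0.27 without late ethanol replicate 2.

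Sufu had the smallest late p of the 9. It was at 7.95 and 8.17 in late ethanol, against 8.19 and 8.22 in late saline. Ethanol replicate 1 stood low, and replicate 2 lay just under the saline arrays. The log2 difference was -0.15 (SE 0.094, 95% interval -0.37 to 0.066, unadjusted p = 0.149 and adjusted p = 1 in limma). Without late ethanol replicate 1 it was -0.037, and without late ethanol replicate 2 it was -0.26 (unadjusted p = 0.0275 and adjusted p = 0.547 in limma), so that the size of the difference rested on 1 pool.

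Ptch1 was at 10.20 and 10.26 in late ethanol and at 10.39 and 10.29 in late saline, a log2 difference of -0.11 (SE 0.11, 95% interval -0.37 to 0.15) that was -0.060 without late saline replicate 1 and -0.16 without late saline replicate 2. Ethanol replicate 2 and saline replicate 2 were only slightly apart. Gli3 was at 7.05 and 7.03 in late ethanol and at 7.12 and 7.07 in late saline, a difference of -0.055 (SE 0.082), with all 4 arrays below background. Gli1 was the only one of the 9 with both late ethanol arrays above both saline arrays, at 6.72 and 6.67 in late ethanol and 6.56 and 6.62 in late saline. Its difference of 0.10 (SE 0.082, 95% interval -0.088 to 0.29) lay in a probe set below background on all 4 arrays. Ptch1 and Gli1, both induced by the pathway in many tissues, thus differed from saline in opposite directions, each with an interval that includes 0.

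Shh was at 7.65 and 7.51 in late ethanol and at 7.45 and 7.53 in late saline, with ethanol replicate 1 the highest array and the other 3 close together. On that highest array Shh lay below the array's own 95th percentile of receptor probe sets, 7.70. The log2 difference was 0.095 (SE 0.082, 95% interval -0.094 to 0.28), and 0.026 without late ethanol replicate 1 and 0.16 without late ethanol replicate 2. Smo was at 7.88 and 7.86 in late ethanol and at 7.85 and 7.90 in late saline, a difference of -0.0058 (SE 0.085). The ethanol arrays of Smo lay between the saline arrays. Hhip was at 7.33 and 7.44 in late ethanol and at 7.30 and 7.46 in late saline, a difference of 0.0046 (SE 0.11). Gli2 was at 6.62 and 6.56 in late ethanol, against 6.65 and 6.45 in late saline, a difference of 0.046 (SE 0.10). For Hhip and Gli2, too, both ethanol arrays lay between the saline arrays.

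**Figure D3:**
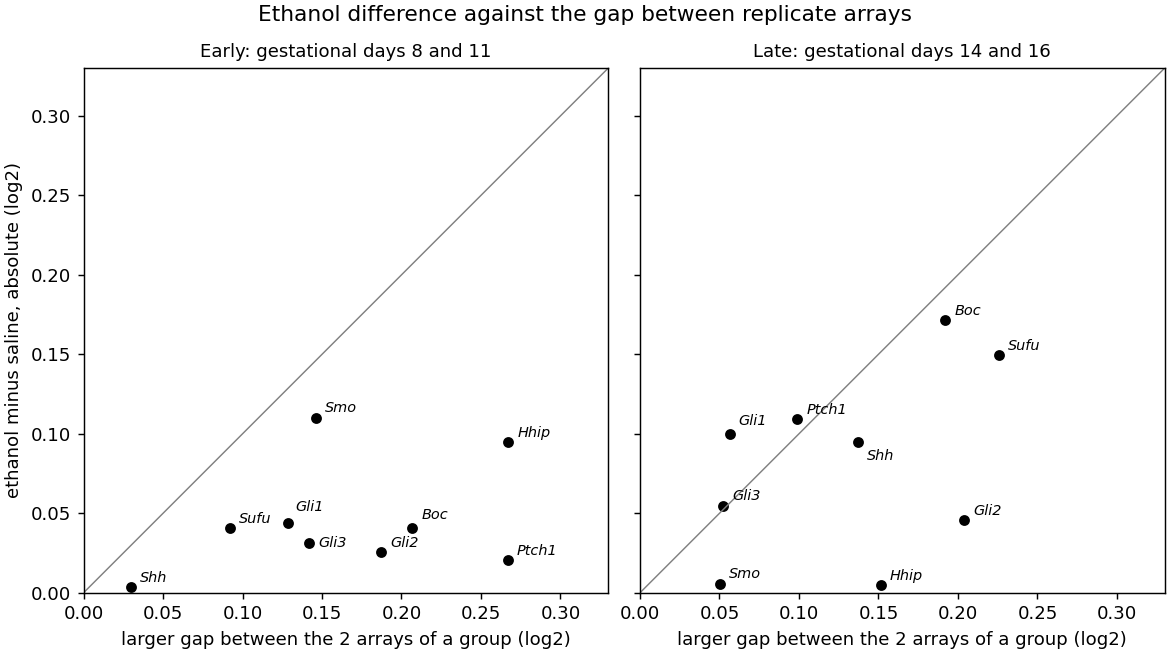
Size of the ethanol minus saline difference (vertical axis, log2) against the larger of the gaps between the 2 arrays of a group (horizontal axis, log2) for the 9 genes, early on the left and late on the right, with a line where both are equal. All 9 genes lie under the line in the early panel, and 3 of 9 (Gli1, Ptch1 and, barely, Gli3) lie above it in the late panel.

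Set against the distance between replicate pools, the ethanol difference was the smaller for 9 of the 9 genes after early exposure and for 6 of the 9 after late exposure, against 19666 and 19502 of 23410 probe sets. The late exceptions were Gli1, Ptch1 and Gli3, and 2 of these lay below background. The 95% interval lay inside 1.2-fold either way for 3 of the 9 late differences (Smo, Hhip and Gli3), against 29.8% of all probe sets, although Hhip and Gli3 lay below background. The widest late bounds were 0.741-fold (Boc) and 1.22-fold (Gli1).

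Early and late effects were set against each other in the same fit. The early effect minus the late effect ran between -0.14 (Gli1) and 0.19 (Sufu) on the log2 scale, and 0 of the 9 passed either threshold, against 0% (adjusted) and 1.99% (study's) of all probe sets. Sufu had the smallest unadjusted p, 0.189 (adjusted p = 1 in limma). Its value of 0.19 was 0.077 without late ethanol replicate 1. Without late ethanol replicate 2 it was 0.30 and passed the study's thresholds (unadjusted p = 0.042 and adjusted p = 0.841 in limma). For the mean of both effects, 0 of the 9 passed either threshold, against 0% (adjusted) and 0.162% (study's) of all probe sets. Boc, lower in ethanol by 0.11 on average (unadjusted p = 0.223, adjusted p = 1 in limma), was the furthest from 0, and 8 of the 9 intervals lay inside 1.2-fold, against 74.5% of all probe sets. The furthest bounds of these averaged effects were 0.818-fold and 1.17-fold.

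The wider pathway was described through 5 lists by role, with 56 genes in all and 52 of them measured by a probe set with a single symbol. The 9 genes belong to these lists. Of the 52, 36 lay above background in the early and 27 in the late arrays. In the wider pathway 0 genes passed the adjusted threshold in either timing and 0 passed the study's thresholds. At an unadjusted p under 0.05 there were 0 genes after early and 1 after late exposure in limma, where 1.71% and 2.49% of all probe sets were past it. The unmoderated test gave 2 and 1, where 3.4% and 3.16% of all probe sets were past it. Of the 52 genes, 19 lay above and 33 below saline after early exposure, with a median of -0.026. After late exposure 21 lay above and 31 below, with a median of -0.029. Over all probe sets, 40.2% lay above saline after early exposure (median -0.020) and 47.3% after late exposure (median -0.0067).

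**Figure D4:**
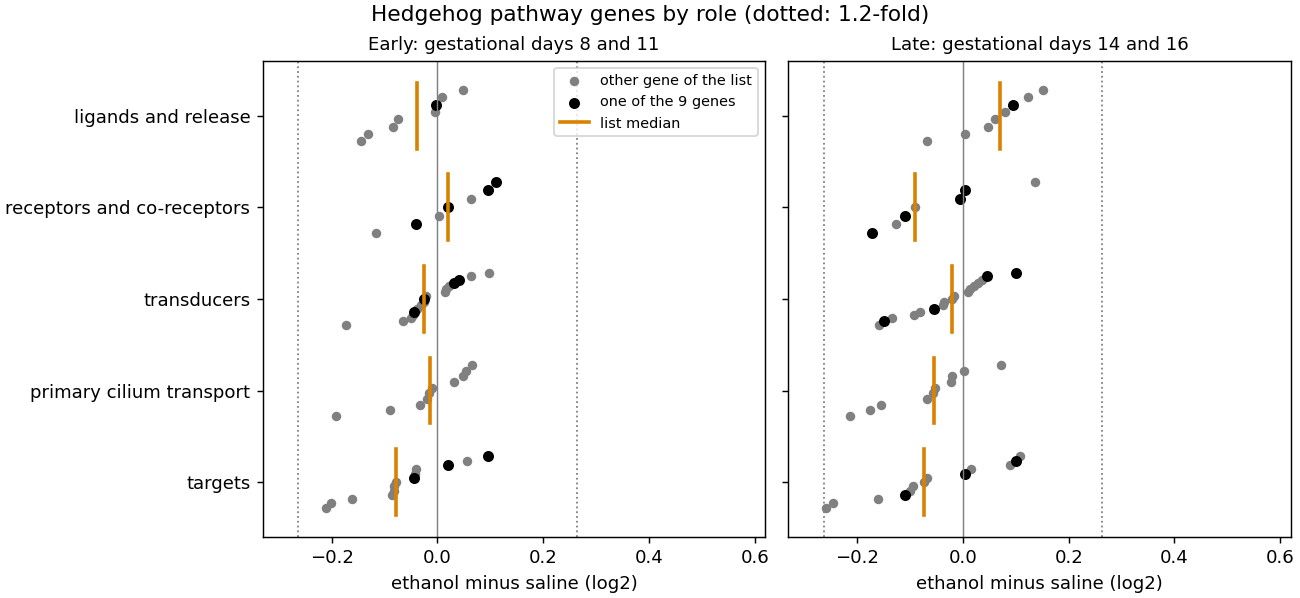
Log2 difference, ethanol minus saline (horizontal axis), of the genes of 5 hedgehog lists (vertical axis), early on the left and late on the right, with the 9 genes in black, others in grey, an orange bar at the list median and dotted lines at 1.2-fold. No gene lies past 1.2-fold in either panel, and the lowest late target, Bcl2, is at -0.26.

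Among ligands and proteins of their release, 2 of 8 genes lay above saline after early exposure (median -0.039) and 7 of 8 after late exposure (median 0.070). Only 3 of these 8 genes lay above background in each timing, so both counts rest mostly on values at background. The list includes Ihh and Dhh, the other hedgehog ligands, both at background, and Disp1, which releases the lipid-modified ligand from its cell. Scube3, a secreted protein of a family that carries the ligand, was at 6.40 and 6.42 in late ethanol and 6.31 and 6.21 in late saline, at background, a difference of 0.15 (unadjusted p = 0.0841). For receptors and co-receptors, 5 of 7 lay above saline after early exposure (median 0.020) and 2 of 7 after late exposure (median -0.091). Of these 7, 4 lay above background in the early and 3 in the late arrays. Transducers had medians of -0.026 and -0.022. Spop, an adaptor for the ubiquitin ligase that degrades Gli proteins, was at 9.14 and 9.07 in early ethanol and 9.37 and 9.18 in early saline, a difference of -0.17 (unadjusted p = 0.152).

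Proteins of the primary cilium, the organelle in which the signal is transduced, had medians of -0.014 after early and -0.055 after late exposure, with 6 and 8 of 10 genes below saline. Inpp5e, a phosphatase of ciliary membrane lipids, was at 8.38 and 8.48 in late ethanol and 8.70 and 8.52 in late saline, a difference of -0.18 (unadjusted p = 0.0812). Target genes had medians of -0.078 and -0.074, with 10 and 8 of 13 genes below saline. Of these 13, 9 lay above background in the early and 5 in the late arrays.

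Bcl2, a survival gene induced by Gli factors in some tissues, was the gene of the wider lists with the smallest p. It was at 9.06 and 9.04 in early ethanol, against 9.32 and 9.11 in early saline, and at 8.93 and 8.90 in late ethanol, against 9.25 and 9.10 in late saline. Both ethanol arrays lay below both saline arrays in each timing, as they did for 18.9% of all probe sets early and 15.7% late. The log2 difference was -0.16 (SE 0.096, unadjusted p = 0.13) after early and -0.26 (SE 0.096, unadjusted p = 0.0265) after late exposure, and -0.21 as the mean of both (unadjusted p = 0.0142), each with adjusted p = 1 in limma. The late difference fell just short of 1.2-fold and was past it with each array centred on its median (-0.28). Without 1 array the early difference ranged from -0.26 (without early saline replicate 2, past the thresholds used in the study) to -0.057 (without early saline replicate 1). The late difference ranged from -0.33 (without late saline replicate 2, past those thresholds) to -0.18 (without late saline replicate 1). Mycn, a proliferation factor and target in granule cell precursors, was at 5.90 and 5.83 in early ethanol and 6.13 and 6.00 in early saline, at background, a difference of -0.20 (unadjusted p = 0.0726). Its late difference was 0.11.

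Marker genes of cell types and regions were read from the same fit, where none had an adjusted p under 0.05. In late ethanol, 9 of 9 cerebellar granule and unipolar brush cell markers lay below saline with no overlap (median -0.38), against 15.7% of all probe sets. Of these 9, 5 were past the thresholds used in the study, against 1.16% of all probe sets. Eomes is in this list and also in that of the olfactory bulb. The mean level of the 9 was 9.89 to 10.29 in ethanol and 10.43 to 10.45 in saline. For 8 of the 9 the difference was smaller than the larger gap between the 2 arrays of a group. Purkinje cell (5 of 5, median -0.17), Bergmann glia (4 of 4, median -0.11) and oligodendrocyte markers (4 of 4, median -0.12) lay below saline. So did neuronal (5 of 5, median -0.039), endothelial (4 of 4, median -0.16) and astrocyte markers (7 of 8, median -0.076). In these lists 0 genes were past those thresholds. Over the 11705 probe sets with the higher values the late median was -0.052, and the neuronal median lay above it. Late markers of meninges (4 of 5, median 0.024) and neural precursors and neuroblasts (3 of 5, median 0.031) lay mostly above saline. In olfactory bulb (7 of 9 below, median -0.029) and choroid plexus (3 of 6 below, median -0.035), 1 gene each was past those thresholds. In early ethanol, 9 of 9 olfactory bulb markers lay below saline (median -0.51), and 5 were past the thresholds used in the study, against 0.923% of all probe sets. Markers of endothelium (4 of 4, median -0.18), meninges (5 of 5, median -0.13) and neural precursors and neuroblasts (5 of 5, median -0.067) also lay below early saline. Only 2 of the 5 neural precursor and neuroblast markers lay above background in each timing. The early median over all probe sets was -0.020. Astrocyte markers lay near saline (5 of 8 below, median -0.0087). Bergmann glia markers went both ways (2 of 4 below, median 0.013), from -0.27 (Fabp7) to 0.15 (Gdf10). Their median size was 0.098, against 0.058 for all probe sets. Neuronal (5 of 5, median 0.14) and oligodendrocyte markers (4 of 4, median 0.15) lay above early saline. Of the 5 nasal tissue markers, 3 lay above and 2 below early saline, with differences from -1.59 to 3.78. All 5 were past the thresholds used in the study, against 0.923% of all probe sets. The part of these markers in the values of the hedgehog genes was not tested.

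As a description, the genes above background whose values most resembled Gli1 over the 8 arrays, with each timing's mean subtracted, were Lima1 (Pearson r = 0.94), Haus5 (0.91) and Gm15348 (0.91), out of 9909 genes searched. The early mean of Gli1 lay only 0.065 (log2) above background and its late values lay below it. The 8 arrays share the normalization of their timing. How high r would be for the best of 9909 unrelated genes was not tested.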

How the data were processed

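Whole-brain RNA was hybridized to 8 Affymetrix Mouse Gene 1.0 ST arrays. The deposited log2 values were used as given. The authors had made them by RMA, with a correction for GC content and quantile normalization, using Partek Genomics Suite (6.6, per the submitters' processing notes, while the methods name another version for expression arrays). The methods for expression arrays cover the early arrays and not the late ones, and the same processing was assumed for the late arrays. Pools of RNA are described in the methods for the miRNA arrays and were taken to apply to all 8 arrays here. The genome build was not given in the sources used here. Timings seem to have been normalized apart, so contrasts were taken inside each. Of 35556 probe sets, 12146 without a symbol were left out, and 23410 were tested (21789 with 1 symbol, 1621 with several). One limma 3.58.1 model (R 4.3.3) held all 8 arrays with 4 group means, and p-values were adjusted by Benjamini-Hochberg over the 23410 probe sets. The number of arrays limits the precision. The model was tested on simulated data. The members, lists and alternatives were chosen with earlier results of these data known. Named genes were the 9, any gene of the wider lists past the thresholds of the study, and the 3 of those lists with the smallest unadjusted p per timing; others were named after their values were seen. Alternatives were an unmoderated test of the 4 arrays of a timing (the methods name ANOVA), limma on those 4 arrays, a replicate block, median centring, quantile normalization over 8 arrays, leaving out the lowest 25% or 50% of probe sets, every probe set, the mean of all probe sets of a gene, an intensity trend and leaving out each array. Sequences came from RefSeq (GRCm38.p6). Figures were drawn with matplotlib 3.10.9.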

Additional observations from a re-analysis of the deposited data

How the results depend on the processing

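Of the 9 genes, 0 passed the adjusted threshold or the thresholds of the study in any of 19 settings run for early and for late exposure, and in any of 17 for the mean of both. For the early effect minus the late effect, 0 passed the adjusted threshold in 17 of 17 settings and 0 the thresholds of the study in 16, with 0 to 1 when an array was left out (Sufu, without late ethanol replicate 2). Signs of the small differences were less stable. Shh after early exposure was 0.0039 with quantile normalization over 8 arrays, and Hhip after late exposure was -0.017 with median centring and -0.011 with quantile normalization; the cause was not tested. Leaving out 1 array gave early ranges of -0.019 to 0.011 for Shh, -0.11 to 0.15 for Ptch1, -0.11 to 0.021 for Gli1, -0.12 to 0.068 for Gli2, -0.040 to 0.10 for Gli3, -0.039 to 0.23 for Hhip, -0.0052 to 0.087 for Sufu and -0.14 to 0.063 for Boc. The late ranges were -0.031 to 0.019 for Smo, -0.056 to 0.15 for Gli2 and -0.071 to 0.080 for Hhip. The early effect minus the late effect ranged from -0.0040 to 0.26 for Ptch1, -0.17 to 0.031 for Gli2 and -0.043 to 0.22 for Hhip.

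Counts over all probe sets at the thresholds of the study, in the order early, late, mean of both and early minus late, were 216, 272, 38 and 465. With every probe set, named or not, they were 669, 674, 330 and 854. The unmoderated test gave 60 early and 58 late. Without the lowest 50% of probe sets there were 169 late and 213 for early minus late. Leaving out 1 array gave 210 to 781 early, 242 to 1750 late, 37 to 210 for the mean and 233 to 1284 for early minus late, with the highest early count without early saline replicate 2 and the other highest counts without late ethanol replicate 2. At the adjusted threshold it gave 0 to 13 early, 0 to 6 for the mean and 0 to 5 for early minus late, highest without early ethanol replicate 2. In the wider pathway it gave 0 to 4 genes early and 0 to 4 late, and median centring gave 1 late (Bcl2). With quantile normalization over 8 arrays, 31 of the early calls were higher and 139 lower in ethanol, against 65 and 151 as deposited.

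The replicate numbers are not tied to litters or days in the labels. Deviations of same-numbered arrays correlated at 0.466 early and -0.464 late. With the replicate block, 229 early and 354 late probe sets passed the thresholds of the study, and 0 of the 9 genes. With the late numbers crossed, an alternative chosen after seeing the data, the counts were 564, 519, 77 and 1099.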
